A study of Mus musculus with 12 samples.

Results

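Of the 18193 mouse genes with a probe set on the array, 7 are described here: Lrrn4cl, As3mt, Neto2, Angptl7, Scara5, Prickle1 and Elovl4. They were picked because their measured values were much higher in APC-deleted than in APC-intact tumours, both with and without doxycycline (Dox). The difference between the genotypes is therefore how they were chosen and is given as a description, without a test. On the array 13 probe sets carried one of these 7 symbols alone, and all were read. All 7 genes passed the filter on low values, which left 11070 genes for testing. A gene is represented by its probe set of highest mean over the 12 tumours unless another is named, and the filter, called the floor below, was a mean log2 value of 5.55.

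The tumours had been grown in the cecum of C57BL/6 mice from MC38, a mouse colon carcinoma line. All cells carried an inducible hairpin against Tdo2, the gene of a tryptophan-degrading dioxygenase. The 4 groups were APC-KO tumours with Dox in the drinking water, APC-KO tumours without Dox, APC-WT tumours with Dox and APC-WT tumours without Dox, with 3 tumours in each. The labels leave unsaid the age of the mice, which part of Apc was deleted, whether the APC-KO line is a single clone, and whether the 3 tumours of a group were grown in different mice. P-values thus cover the spread among these samples alone, and it may be technical. No group had Dox without the hairpin, so the drug and the knockdown cannot be told apart.

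The 7 genes belong to no single pathway. Lrrn4cl, Scara5 and Neto2 encode membrane proteins: Lrrn4cl is a small leucine-rich repeat related protein whose forced expression in melanoma cells favours growth in mouse lung, Scara5 is a scavenger receptor that binds ferritin, and Neto2 is an auxiliary subunit of kainate-type glutamate receptors. Angptl7 is a secreted protein of the angiopoietin-like family, best known from the eye. As3mt methylates inorganic arsenic with S-adenosylmethionine, and Elovl4 elongates very long chain fatty acids. Prickle1 is a core protein of planar cell polarity, the branch of Wnt signalling that orients cells without beta-catenin. APC is the scaffold that holds beta-catenin low, and its loss is the usual first step of colorectal cancer.

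The targeted genes set the frame. The brightest of the 4 Apc probe sets lay between 8.19 and 8.41 in the 6 APC-KO tumours and between 8.39 and 8.57 in the 6 APC-WT tumours, and another differed by -0.94 ± 0.09 with Dox and -0.84 ± 0.09 without Dox between APC-KO and APC-WT (SE; limma, adjusted p over all probe sets 3.08e-06 and 1.02e-05). Tdo2 lay under the floor in all 12 tumours on each of its 3 probe sets, so the knockdown could not be followed. Array medians lay between 5.528 and 5.575.

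RefSeq sequences around the start of the gene (250 bases before to 50 after, build GRCm38.p6) were at hand for 5 of the 7 genes, As3mt, Neto2, Angptl7, Prickle1 and Elovl4. They are shown as a description of genes that were picked for a like genotype difference, and the 5 printed differ in base composition. The capitals mark GC boxes, GGGCGG on either strand, where neighbouring matches can share a base.
Elovl4 (chr9:83806256-83806555, minus strand): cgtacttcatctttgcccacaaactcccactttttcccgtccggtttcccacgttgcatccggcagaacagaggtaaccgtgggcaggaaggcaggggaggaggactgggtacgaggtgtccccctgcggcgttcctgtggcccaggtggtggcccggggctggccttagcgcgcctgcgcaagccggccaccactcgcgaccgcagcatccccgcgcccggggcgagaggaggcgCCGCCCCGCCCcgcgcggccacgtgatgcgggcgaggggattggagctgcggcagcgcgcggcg
Prickle1 (chr15:93595853-93596152, minus strand): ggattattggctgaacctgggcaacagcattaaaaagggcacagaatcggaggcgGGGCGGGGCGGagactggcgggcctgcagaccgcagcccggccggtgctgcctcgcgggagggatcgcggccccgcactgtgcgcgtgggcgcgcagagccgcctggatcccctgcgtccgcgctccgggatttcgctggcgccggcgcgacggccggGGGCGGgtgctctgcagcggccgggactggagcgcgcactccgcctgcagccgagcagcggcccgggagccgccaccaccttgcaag
Neto2 (chr8:85700875-85701174, minus strand): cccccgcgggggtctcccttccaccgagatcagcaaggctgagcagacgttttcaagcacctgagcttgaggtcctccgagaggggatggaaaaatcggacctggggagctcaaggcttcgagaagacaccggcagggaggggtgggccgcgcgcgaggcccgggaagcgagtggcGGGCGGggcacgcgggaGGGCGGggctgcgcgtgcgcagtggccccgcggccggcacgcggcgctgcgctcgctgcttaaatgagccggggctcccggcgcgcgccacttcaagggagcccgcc
As3mt (chr19:46707208-46707507, plus strand): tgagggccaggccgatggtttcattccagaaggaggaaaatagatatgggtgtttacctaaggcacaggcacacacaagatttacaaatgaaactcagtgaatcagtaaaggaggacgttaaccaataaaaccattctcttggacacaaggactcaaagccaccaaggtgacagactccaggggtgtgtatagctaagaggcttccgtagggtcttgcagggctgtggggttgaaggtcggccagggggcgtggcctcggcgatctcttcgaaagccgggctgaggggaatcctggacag
Angptl7 (chr4:148500413-148500712, minus strand): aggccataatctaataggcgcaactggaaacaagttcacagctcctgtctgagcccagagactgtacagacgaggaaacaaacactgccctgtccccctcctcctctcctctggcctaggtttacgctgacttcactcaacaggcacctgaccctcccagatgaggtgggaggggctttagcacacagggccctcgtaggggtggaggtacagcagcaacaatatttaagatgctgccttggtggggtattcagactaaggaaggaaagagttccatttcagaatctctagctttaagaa
The windows of Elovl4, Prickle1 and Neto2 are CpG-rich, with 35, 39 and 36 CG pairs in 300 bases and a GC content of 71.0, 74.0 and 72.0%. Those of As3mt and Angptl7 hold 9 and 4 CG pairs at 52.0 and 51.3% GC, against medians of 7 CG pairs and 52.7% over 32851 such windows of mouse genes. A second annotated start gave other values for the same genes: the second Neto2 window holds 0 CG pairs at 42.7% GC, and the second Prickle1 window 20 at 61.0%. GC boxes were found in the printed windows of Elovl4, Prickle1 and Neto2 and in the second Prickle1 window, and not in those of As3mt and Angptl7 or the second of Neto2; of all windows 35.7% hold one. The letters CTTTG followed by AA, AT, TA or TT, a core that T cell factors bind as partners of beta-catenin, were searched on both strands and are not in these windows or in the second annotated start windows of Neto2 and Prickle1; 16.9% of all windows hold one. An E-box, CACGTG, lies in the Elovl4 window, as in 7.2% of all windows, and overlaps no GC box.

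In every one of the 6 APC-KO tumours each of the 7 genes had a higher log2 value than in any of the 6 APC-WT tumours. Such a full separation upwards held for 989 of the 11070 tested genes (8.93%), and since the genes were chosen on this difference nothing is read from it. The median difference of the 7 genes, APC-KO minus APC-WT, was 1.96 with Dox and 1.79 without Dox, where the medians of all tested genes were 0.01 and 0.01. Averaged over both Dox states, Lrrn4cl and As3mt ranked first and second of the 11070 genes, and Elovl4, the lowest of the 7, ranked 11th. The choice had no numeric limit: 4 other genes were at or above Elovl4, among them Ptgis (2.22 with Dox and 1.88 without) and Hlf (1.83 and 1.76), and the next named gene after Elovl4 was Morc4 (1.64 and 1.48).

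**Figure D1:**
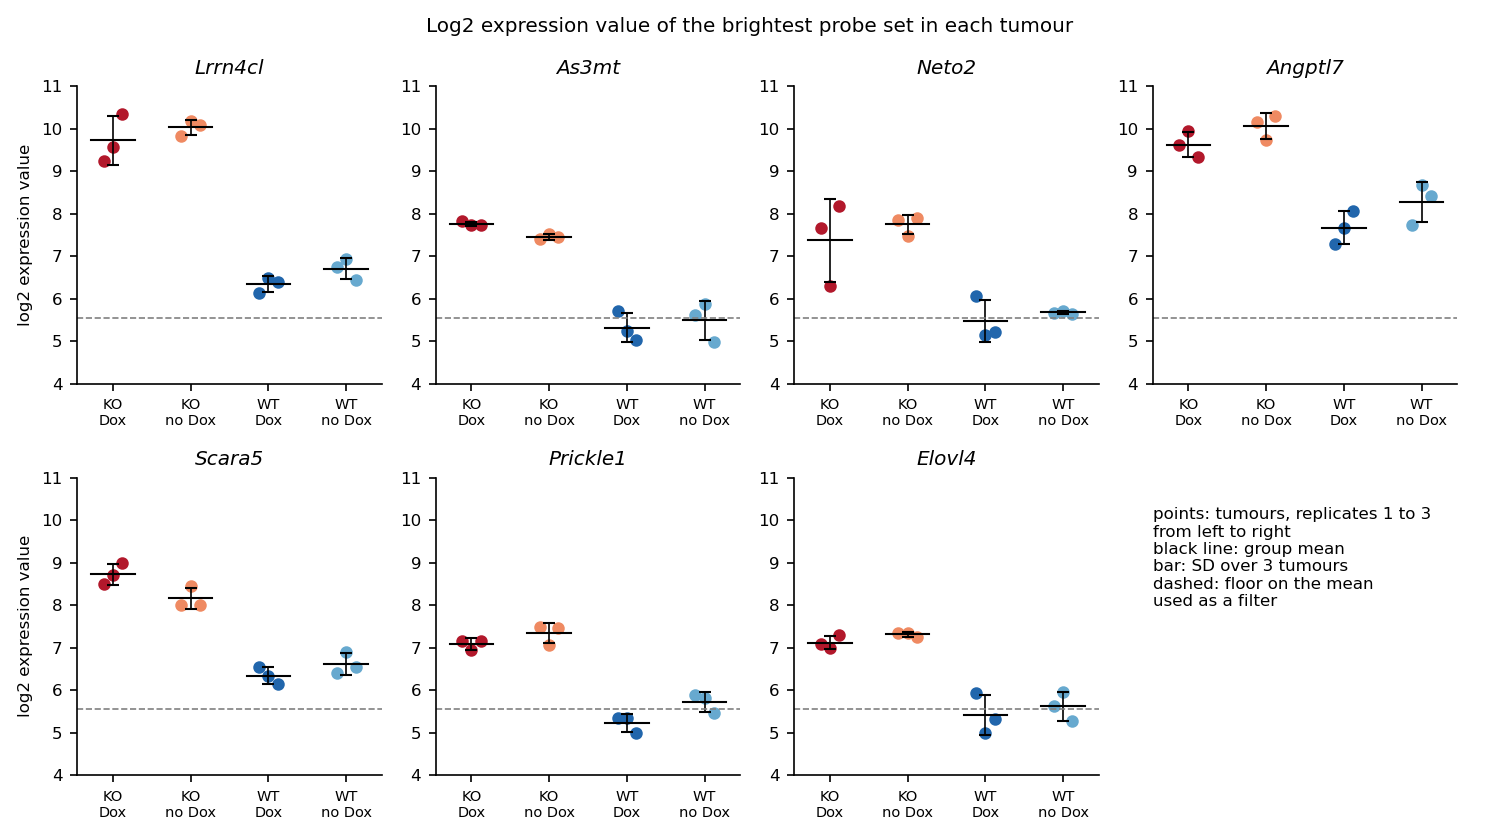
Log2 expression values (vertical axis) of the brightest probe set of each gene in the 12 tumours, by group (horizontal axis); points are tumours, black lines group means, bars the SD over 3 tumours, and the dashed line is the floor of 5.55. In each panel the 6 APC-KO points lie above the 6 APC-WT points, with the narrowest gap in Neto2 (0.24) and the widest in Lrrn4cl (2.32).

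Among the membrane proteins, Lrrn4cl had the largest difference of the 11070 tested genes in both Dox states. Its log2 values were 9.24, 9.57 and 10.35 in APC-KO tumours with Dox, against 6.13, 6.49 and 6.39 in APC-WT tumours with Dox. Without Dox they were 9.83, 10.17 and 10.08 in APC-KO tumours, against 6.75, 6.92 and 6.43 in APC-WT tumours. All values lay above the floor, and the lowest APC-KO tumour was 2.32 above the highest APC-WT tumour. The difference was 3.38 ± 0.22 with Dox (SE of the fit, 3 tumours per group), a 10.41-fold higher level in APC-KO tumours, and 3.33 ± 0.22 without Dox, or 10.03-fold.

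Scara5 was also above the floor in every tumour. With Dox its values were 8.49, 8.70 and 8.98 in APC-KO tumours, against 6.54, 6.33 and 6.15 in APC-WT tumours, a difference of 2.38 ± 0.16 or 5.22-fold. Without Dox they were 8.01, 8.44 and 8.01 in APC-KO tumours, against 6.39, 6.89 and 6.54 in APC-WT tumours, a difference of 1.55 ± 0.16 or 2.92-fold. The 3 APC-KO tumours with Dox were all above the 3 without, and the fitted difference between the genotypes was larger with Dox. The interaction test of that difference is given below.

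Neto2 was the most uneven of the 7. With Dox its values were 7.65, 6.29 and 8.18 in APC-KO tumours, against 6.05, 5.15 and 5.21 in APC-WT tumours, a difference of 1.90 ± 0.36, with no fold since 2 of these APC-WT tumours were under the floor. Without Dox they were 7.85, 7.48 and 7.90 in APC-KO tumours, against 5.67, 5.71 and 5.64 in APC-WT tumours, a difference of 2.07 ± 0.36 or 4.2-fold. APC-KO Dox replicate 2 stood only 0.24 above the highest APC-WT tumour, and without it the difference with Dox was 2.44. Without APC-KO Dox replicate 3, the highest tumour, it was 1.497. APC-KO Dox replicate 2 was the lowest APC-KO tumour on the other 2 Neto2 probe sets too, at 4.45 and 3.63.

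Angptl7, the secreted protein gene, was well above the floor in both genotypes. Its values with Dox were 9.62, 9.93 and 9.32 in APC-KO tumours, against 7.29, 7.67 and 8.05 in APC-WT tumours, a difference of 1.96 ± 0.24 or 3.88-fold. Without Dox they were 10.15, 9.72 and 10.30 in APC-KO tumours, against 7.74, 8.66 and 8.42 in APC-WT tumours, a difference of 1.79 ± 0.24 or 3.45-fold. No value came near the floor, and the genotypes lay 0.65 apart at their closest.

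The enzyme genes As3mt and Elovl4 were near the floor in APC-WT tumours and clearly above it in APC-KO tumours. As3mt had 7.82, 7.72 and 7.73 in APC-KO tumours with Dox, against 5.70, 5.23 and 5.02 in APC-WT tumours with Dox, a difference of 2.44 ± 0.19. Without Dox As3mt had 7.39, 7.52 and 7.45 in APC-KO tumours, against 5.62, 5.86 and 4.98 in APC-WT tumours, a difference of 1.97 ± 0.19. The APC-KO tumours of a Dox state lay close together, with an SD of 0.05 with Dox and 0.06 without, while 3 of the 6 APC-WT values were under the floor, so no fold is given.

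Elovl4 had 7.08, 6.98 and 7.29 in APC-KO tumours with Dox, against 5.92, 4.98 and 5.32 in APC-WT tumours with Dox, a difference of 1.71 ± 0.20. Without Dox Elovl4 had 7.35, 7.33 and 7.24 in APC-KO tumours, against 5.63, 5.95 and 5.26 in APC-WT tumours, a difference of 1.70 ± 0.20. Here too 3 of the 6 APC-WT values were under the floor. The difference in the 2 Dox states was nearly equal.

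Prickle1, the planar cell polarity gene, was the only one of the 7 with a whole group under the floor. With Dox its values were 7.16, 6.93 and 7.16 in APC-KO tumours, against 5.34, 5.34 and 4.98 in APC-WT tumours, so the level was at least 2.89-fold higher in APC-KO tumours when taken against the floor. The fitted difference was 1.86 ± 0.15, and 1.53 with values under the floor raised to it. Without Dox Prickle1 had 7.48, 7.07 and 7.47 in APC-KO tumours, against 5.89, 5.82 and 5.45 in APC-WT tumours, a difference of 1.62 ± 0.15.

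Tumours of one group differed more in these genes than in most others. The residual SD within groups was between 0.208 (Prickle1) and 0.561 (Neto2) on the log2 scale. That of Prickle1, the steadiest of the 7, was above the residual SD of 94.3% of all tested genes. For As3mt and Elovl4 the spread lay mostly in APC-WT tumours, whose values were near the floor. With and without Dox the As3mt SD was 0.35 and 0.46 in APC-WT tumours, against 0.05 and 0.06 in APC-KO tumours. That of Elovl4 was 0.47 and 0.34, against 0.16 and 0.06. RNA of whole tumours was measured, so more cells of a type and more RNA per cell cannot be told apart for any of these genes.

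The other probe sets of a gene gave a mixed picture. Of the 13 probe sets, 9 separated all APC-KO from all APC-WT tumours and 4 did not. Lrrn4cl, As3mt and Angptl7 had 1 probe set each, so no second reading exists for them. Elovl4 was read alike by its 2 probe sets: the second, of mean 6.15, differed by 1.66 ± 0.17 with Dox and 1.63 ± 0.17 without Dox (SE of the fit over all probe sets). The 2 dimmer Neto2 probe sets, at means of 4.57 and 3.88 and under the floor on all arrays, differed by 1.03 ± 0.21 and 0.98 ± 0.24 with Dox and by 1.16 ± 0.21 and 0.93 ± 0.24 without. One of them overlapped between the genotypes.

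For Scara5 and Prickle1 the further probe sets did not show the difference. The second Scara5 probe set had a mean of 5.56, with 5 of 12 arrays under the floor, and differed by 0.21 ± 0.12 with Dox and 0.13 ± 0.12 without Dox. The other 2 of Prickle1 lay under the floor on all 12 arrays at means of 3.86 and 3.55, and differed by 0.05 ± 0.12 and 0.15 ± 0.09 with Dox and by -0.03 ± 0.12 and 0.01 ± 0.09 without. The sources used here do not say which transcripts these probe sets read.

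**Figure D2:**
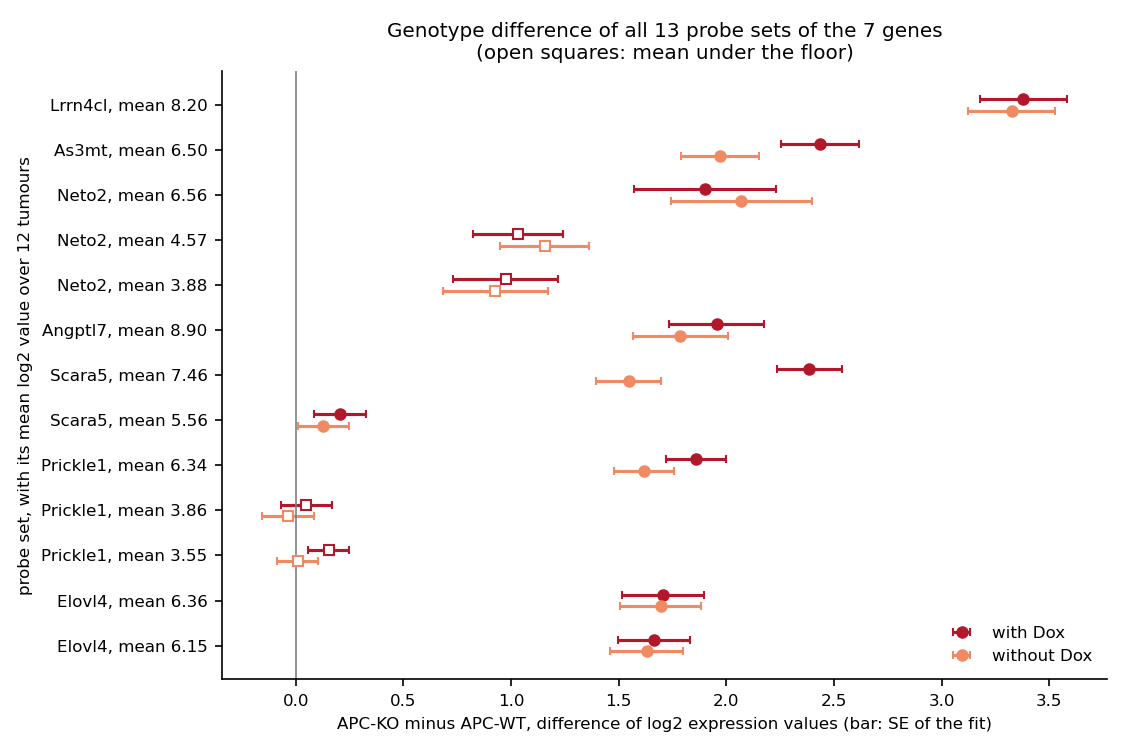
Differences of log2 expression values, APC-KO minus APC-WT (horizontal axis), for the 13 probe sets (vertical axis, each with its mean over the 12 tumours), with Dox in dark and without Dox in light colour; bars are the SE of the fit and open squares are probe sets whose mean lay under the floor. The brightest probe set of each gene lies at or above 1.55, the second of Scara5 and the 2 dim ones of Prickle1 at or below 0.21.

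Whether Dox went with a change in these genes was a comparison that had not chosen them, though it used the same arrays. Of the 7 genes 0 passed in APC-KO tumours, where 60 of 11070 genes did (0.542%; limma, Benjamini-Hochberg adjusted p under 0.05), and 0 passed in APC-WT tumours, where 3 did (0.0271%). At an unadjusted p under 0.05 there were 1446 and 1716 genes. When 1 array was left out, the count of 60 was 1 without APC-KO Dox replicate 3 and 92 without APC-KO Dox replicate 1, and the count of 3 was 418 without APC-WT no-Dox replicate 3. All 7 genes were below 0 with Dox in APC-WT tumours, with a median of -0.27, where 52.9% of all tested genes were. In APC-KO tumours 5 of 7 were below 0, with a median of -0.26, where 49.2% of all tested genes were. Nothing is read from the count in APC-WT tumours, since As3mt, Neto2, Prickle1 and Elovl4 had values under the floor there.

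Scara5 had the smallest p of the 7 with Dox in APC-KO tumours. It was at 0.57 ± 0.16 (adjusted p 0.146 in limma), and its 3 Dox tumours did not overlap the 3 others, as for 17.7% of tested genes in APC-KO tumours and 21.3% in APC-WT tumours. In APC-WT tumours it stood at -0.27 ± 0.16 (adjusted p 0.434). The second Scara5 probe set went the other way in APC-WT tumours, at 0.25 ± 0.12 (adjusted p over all probe sets 0.509 in limma). In APC-KO tumours that probe set was at 0.33 ± 0.12 (adjusted p 0.371). As3mt was at 0.30 ± 0.19 in APC-KO tumours (adjusted p 0.538), also without overlap, and at -0.17 ± 0.19 in APC-WT tumours (adjusted p 0.709). Neither gene passed in either genotype, and the Scara5 adjusted p was 0.0913 to 0.48 over the alternatives run for APC-KO tumours.

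The largest differences with Dox in APC-WT tumours were those of Angptl7 and Prickle1. Angptl7 was at -0.61 ± 0.24 (adjusted p 0.243 in limma) with overlapping groups, and at -0.44 ± 0.24 in APC-KO tumours (adjusted p 0.46). With array quality weights, in a limma fit that called 653 genes, its adjusted p in APC-WT tumours rounded to 0.05 and it passed. Prickle1 was at -0.50 ± 0.15 (adjusted p 0.154) and at -0.26 ± 0.15 in APC-KO tumours (adjusted p 0.482). All 3 Prickle1 values of APC-WT tumours with Dox and 1 of 3 without lay under the floor, and the gene was tested because its APC-KO values lifted its mean, so nothing is read from its Dox difference in APC-WT tumours, its lack of overlap there or its passing under 2 alternatives (adjusted p 0.0367 with array quality weights and 0.033 without APC-WT no-Dox replicate 3). In APC-WT tumours with Dox 2 of 3 values of As3mt, Neto2 and Elovl4 were under the floor as well, and their Dox differences there are limited in the same way.

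Lrrn4cl, Neto2 and Elovl4 stayed within their spread. Lrrn4cl was at -0.31 ± 0.22 with Dox in APC-KO tumours and -0.36 ± 0.22 in APC-WT tumours (adjusted p 0.582 and 0.436 in limma). Neto2 was at -0.37 ± 0.36 and -0.20 ± 0.36 (adjusted p 0.707 and 0.822), and Elovl4 at -0.19 ± 0.20 and -0.20 ± 0.20 (adjusted p 0.744 and 0.661). For each of the 3 the Dox and no-Dox values overlapped in both genotypes. The Neto2 value in APC-KO tumours was 0.17 without APC-KO Dox replicate 2, the tumour described above.

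**Figure D3:**
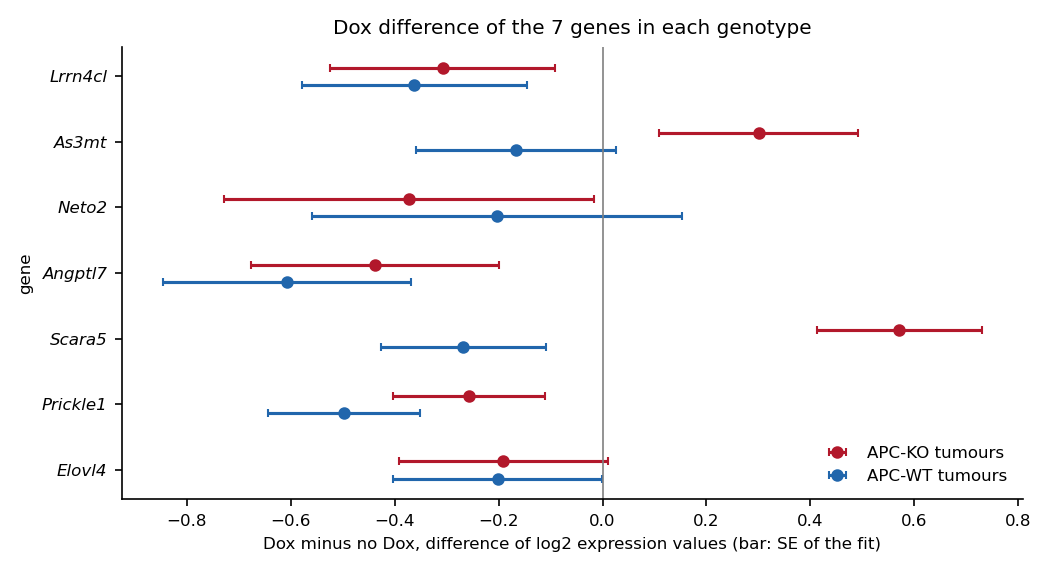
Differences of log2 expression values, Dox minus no Dox (horizontal axis), of the 7 genes (vertical axis) in APC-KO and APC-WT tumours; bars are the SE of the fit. In APC-WT tumours all 7 points lie between -0.61 and -0.17, and in APC-KO tumours Scara5 (0.57) and As3mt (0.30) lie above 0.

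The genotype by Dox interaction asks whether the distance between the genotypes was different with Dox. It passed for 0 of the 7 genes and 0 of 11070 in limma (0.0%), where 1312 had an unadjusted p under 0.05. It is built from the 2 genotype differences on which the genes were chosen, so it is no independent test of them. Of 6 APC-WT values each, 3 of As3mt, 2 of Neto2, 4 of Prickle1 and 3 of Elovl4 lay under the floor. This limits the interaction values of these genes. Scara5 was at 0.84 ± 0.22 (adjusted p 0.237) and As3mt at 0.47 ± 0.27 (adjusted p 0.53), and Lrrn4cl, Neto2, Angptl7, Prickle1 and Elovl4 lay between -0.17 and 0.24. The second Scara5 probe set was at 0.08 ± 0.17. In the order of group means, each of the 7 had both APC-KO groups first. As3mt and Scara5 were highest in APC-KO tumours with Dox, not overlapping those without, as for 17.7% of tested genes in either direction. For Scara5 the nearest values were 8.49 with Dox and 8.44 without. The other 5 were highest in APC-KO tumours without Dox, overlapping those with Dox. Among APC-WT groups the no-Dox mean of the brightest probe set was the higher one for all 7, though not on the second Scara5 probe set. The groups overlapped for all but Prickle1, whose values were mostly under the floor.

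Signs of RNA quality differed between Dox states and between genotypes. The 18S ribosomal RNA signal was between 9.34 and 9.61 in APC-KO tumours with Dox, 9.80 and 10.16 in APC-KO tumours without Dox, 9.38 and 9.61 in APC-WT tumours with Dox and 9.46 and 9.59 in APC-WT tumours without Dox, so that APC-KO tumours without Dox stood above the other 3 groups. The difference between the 3' and 5' probe sets of Gapdh was -0.156 to -0.111 in APC-KO tumours with Dox, against -0.188 to -0.158 in APC-WT tumours with Dox, and -0.184 to -0.154 in APC-KO tumours without Dox, against -0.116 to -0.092 in APC-WT tumours without Dox. The genotypes did not overlap in either state, with APC-KO the higher with Dox and the lower without. The part of RNA quality in the genotype and Dox differences of the 7 genes was not tested.

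Genes whose pattern over the 12 tumours lay closest were found by the root mean square difference of values centred on each gene's mean, as a description. As3mt and Scara5 were near each other (0.276), with Ptgis, the prostacyclin synthase gene, at 0.273 from As3mt and 0.312 from Scara5. Ptgis was also close to Prickle1 (0.261), just behind Armcx1 (0.260). Elovl4 lay closest to Csgalnact1, a chondroitin sulfate synthesis gene (0.264), and Armcx1 (0.266), with Prickle1 next among the 7 (0.267). Angptl7 was nearest to Hlf, a circadian transcription factor gene (0.384), and Prickle1 (0.400). Neto2 was nearest to Elovl4 (0.415) and Prickle1 (0.435), and Lrrn4cl, with a root mean square of its own of 1.707, was 0.705 from As3mt and 0.724 from Ptgis. The centred values hold the genotype difference on which the 7 genes were chosen, so genes with a like difference lie close. Nothing more is read from the closeness. The genes were also compared over the same arrays, so their values share each array's own shifts.

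The position of the genes was examined through their neighbours, the 5 tested genes on each side in the order of the mouse reference. Lrrn4cl and As3mt lie on chromosome 19, Neto2 on 8, Angptl7 on 4, Scara5 on 14, Prickle1 on 15 and Elovl4 on 9. Of the 10 neighbours of As3mt, 7 were higher in APC-KO tumours with Dox and 6 without Dox, with medians of 0.29 and 0.28 and 0 lower (limma, which called 11.9% of all tested genes higher and 7.99% lower with Dox, and 13.8% higher and 11.1% lower without). Next to As3mt, Borcs7 differed by 0.30 ± 0.09 and 0.28 ± 0.09 (adjusted p 0.0308 and 0.0352) and Cnnm2 by 0.32 ± 0.11 and 0.30 ± 0.11 (adjusted p 0.0619 and 0.0609). The difference of As3mt itself, 2.44 and 1.97, was several times that of any neighbour.

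Around Lrrn4cl, 5 of 10 neighbours were higher in APC-KO tumours with Dox and 6 without Dox, and 1 was lower in both. The 3 genes that follow it were among them: Ubxn1 (0.46 ± 0.06 with Dox and 0.57 ± 0.06 without), Uqcc3 (0.75 ± 0.11 and 0.71 ± 0.11) and Ints5, a subunit gene of the Integrator complex (0.96 ± 0.05 and 1.09 ± 0.05; adjusted p 7.13e-08 and 2.09e-08 in limma). Bscl2, on the other side, differed by 0.25 ± 0.07 and 0.21 ± 0.07. The lower one, B3gat3, was at -0.72 ± 0.08 with Dox and -0.47 ± 0.08 without. Over all of chromosome 19, members left out, 25.4% of 397 tested genes were higher in APC-KO tumours with Dox and 36.8% without, with medians of 0.10 and 0.16; this count was added after the neighbours had been seen.

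For the other 5 genes the direction of the calls differed. Neighbours of Neto2 and Prickle1 were called higher only, those of Angptl7 lower only, and those of Scara5 and Elovl4 in both directions. Of 10 neighbours each, those higher with Dox and without Dox were 4 and 0 for Neto2, 0 and 0 for Angptl7, 2 and 1 for Scara5, 3 and 2 for Prickle1 and 3 and 2 for Elovl4, with medians between -0.09 and 0.14. Lower with Dox and without Dox were 0 and 0 for Neto2, 0 and 1 for Angptl7, 1 and 1 for Scara5, 0 and 0 for Prickle1 and 0 and 2 for Elovl4. Next to Neto2, Itfg1 was higher with Dox (0.24 ± 0.08, adjusted p 0.0388 in limma; 0.17 ± 0.08 without Dox, adjusted p 0.119) and Dnaja2 did not pass. Mtor and Exosc10 beside Angptl7 and Elp3 and Pbk beside Scara5 did not pass in either state. Beside Prickle1, Pus7l was higher by 0.33 ± 0.07 with Dox and 0.42 ± 0.07 without, and Pphln1 did not pass. Beside Elovl4, Sh3bgrl2 differed by 0.29 ± 0.07 with Dox and 0.47 ± 0.07 without (adjusted p 0.0102 and 0.000343 in limma), while Ttk on the other side did not pass. Scara3, a relative of Scara5 that lies 3 tested genes away from it, was higher by 0.52 ± 0.13 and 0.44 ± 0.13 (adjusted p 0.0143 and 0.0275 in limma), and Clu, the next gene, was lower in both states (-0.39 ± 0.08 with Dox and -0.48 ± 0.08 without).

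**Figure D4:**
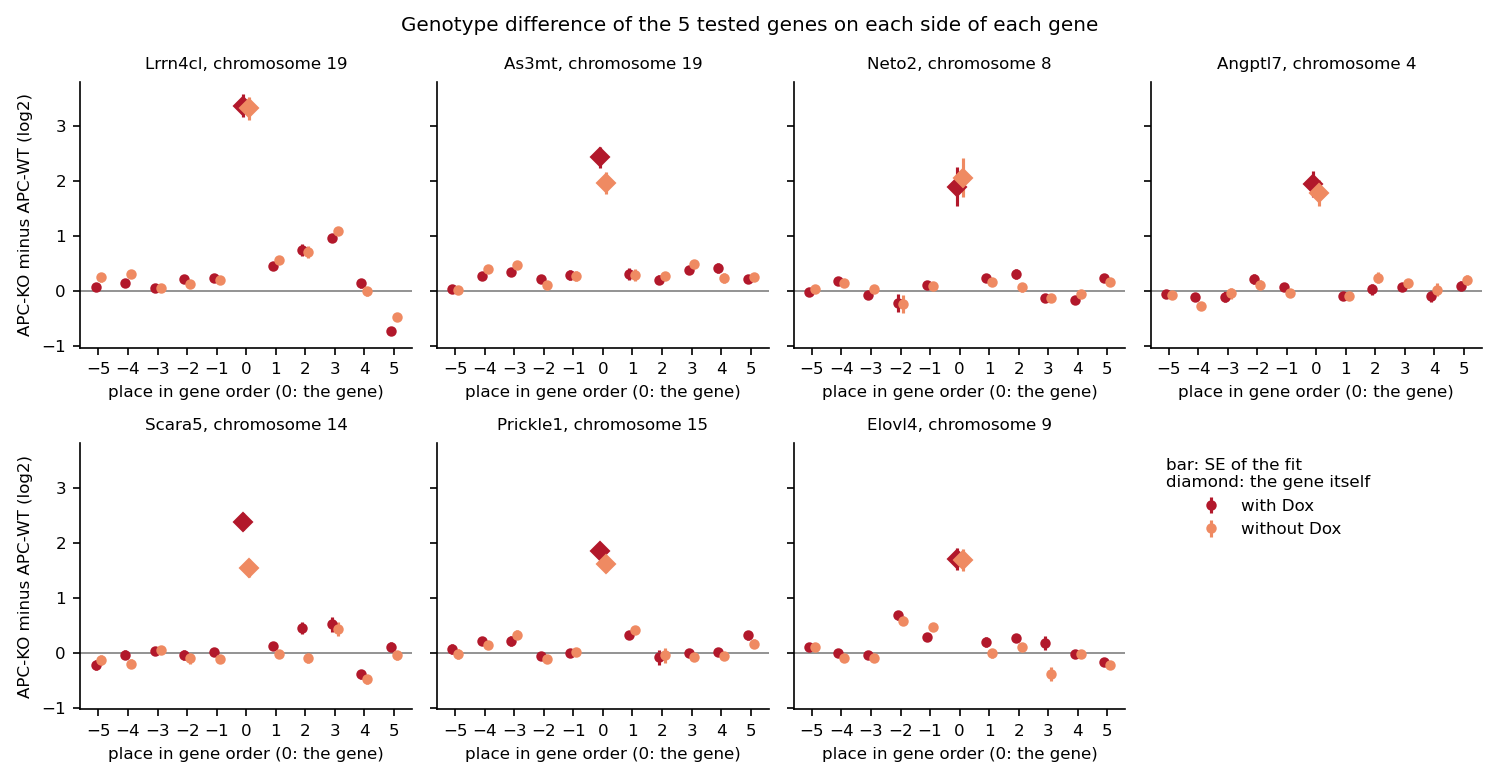
Differences of log2 expression values, APC-KO minus APC-WT (vertical axis), of each of the 7 genes (diamonds) and its 5 tested neighbours on each side by place in gene order (horizontal axis), with Dox in dark and without Dox in light colour; bars are the SE of the fit. Of the 70 neighbours Ints5 near Lrrn4cl reaches the highest value, 1.09 without Dox, and the 7 genes all lie above it.

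Relatives of the 7 genes by family or pathway were counted in the same fit, as lists that hold none of the 7. Of the other Elovl elongases 4 of 6 were tested: Elovl6, which elongates palmitate, passed without Dox (0.58 ± 0.16, adjusted p 0.0145; 0.31 ± 0.16 with Dox, adjusted p 0.184), and Elovl1 was lower in both states (-0.28 ± 0.06 with Dox and -0.20 ± 0.06 without). In the interaction fit, which tests the difference between the 2 states, 0 of 11070 genes passed, these included. Of 9 tested genes of the further steps of very long chain fatty acid synthesis, 1 was higher with Dox and 3 without, with medians of 0.07 and 0.15. Hacd1, a dehydratase of that cycle, was higher in both (0.58 ± 0.11 and 0.59 ± 0.11; adjusted p 0.00222 and 0.00147 in limma), and Hacd2 (0.41 ± 0.09) and Tecr (0.24 ± 0.07) passed without Dox.

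Planar cell polarity genes were measured in part: 9 of the 20 listed were tested and 9 lay under the floor, Prickle2 among them. With Dox 3 were higher and 1 lower, and without Dox 1 was higher and 1 lower, with medians of 0.21 and 0.03. Wnt5a, a ligand of this branch, was higher by 1.62 ± 0.20 with Dox and 1.44 ± 0.20 without (adjusted p 6.94e-05 and 0.000187 in limma), Dvl1 was lower (-0.36 ± 0.05 and -0.16 ± 0.05), and Daam1 was higher with Dox (0.35 ± 0.08). Beta-catenin targets were also measured in part: 8 of the 18 listed were tested, and Nkd1, Notum, Lgr5, Rnf43 and Sp5 were among those under the floor. Of all tested genes 11.9% were called higher with Dox and 13.8% without, and 7.99 and 11.1% lower. Of the 8 targets tested 1 was higher and 2 were lower in both Dox states, with medians of -0.00 and -0.03. They were Lef1 (0.48 ± 0.09 with Dox and 0.39 ± 0.09 without), Ccnd1 (-0.22 ± 0.04 and -0.24 ± 0.04) and Apcdd1, a Wnt inhibitor gene (-2.35 ± 0.23 and -2.41 ± 0.23), while Axin2 was at 0.02 ± 0.12 and 0.00 ± 0.12 without passing.

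Among scavenger receptors 4 of 7 were tested, and with Dox 2 were higher and 2 lower, without Dox 1 and 1. Besides Scara3 and Scarb1 these were Msr1 (-0.49 ± 0.11 with Dox) and Scarb2 (-0.29 ± 0.08 with Dox and -0.45 ± 0.08 without). Of 7 tested ferritin and iron genes 1 was higher in each state, Hfe with Dox (0.24 ± 0.07) and the iron transporter gene Slc11a2 without (0.47 ± 0.10), and Fth1, the ferritin heavy chain gene, did not pass in either. Of 5 tested angiopoietin and angiopoietin-like genes 1 was higher and 1 lower in each state: Angptl6 was lower in both (-0.61 ± 0.11 with Dox and -0.42 ± 0.11 without), Angpt1 higher with Dox (0.72 ± 0.14) and Angpt2 without (0.42 ± 0.14). Of 6 tested arsenic and one-carbon methylation genes 3 were higher and 1 lower with Dox, and 0 and 2 without. Pnp was lower in both (-0.18 ± 0.06 with Dox and -0.17 ± 0.06 without), Mat2b lower without Dox (-0.31 ± 0.09) and N6amt1 higher with Dox (0.30 ± 0.10). Neto1 and the kainate receptor genes were mostly under the floor, 2 of 6 being tested, Neto1 and Grik5, and neither passing. All 4 Lrrn genes lay under the floor.

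Several cell type markers differed between the genotypes beside the 7 genes. The summed signal of 8 fibroblast markers, 7 of them above the floor on average, was between 14.51 and 14.70 (log2) in the APC-KO groups. In the APC-WT groups it was between 14.40 and 14.49, without overlap. A full separation upwards held for 8.93% of single tested genes. The sum rests mostly on Col3a1 and Dcn, the brightest at means of 13.37 and 12.94. Col3a1 differed by 0.23 ± 0.05 with Dox and 0.10 ± 0.05 without. Of the list 4 were higher with Dox and 2 without, with medians of 0.41 and 0.11. Among all tested genes 11.9 and 13.8% were called higher. Pdgfra, a receptor of fibroblasts, was higher in both states (0.41 ± 0.07 with Dox and 0.54 ± 0.07 without), and Pi16 lay under the floor. Dpt, a matrix protein gene, was higher by 1.64 ± 0.29 with Dox (adjusted p 0.0018 in limma) and was at 0.43 ± 0.29 without Dox (adjusted p 0.311). Its mean over the 12 tumours was 5.71, near the floor, which limits these values. Other markers of the list went otherwise: Lum was at 0.25 ± 0.36 with Dox and -0.61 ± 0.36 without, and Dcn at -0.05 ± 0.06 and 0.11 ± 0.06, none of them passing. The summed signal of 4 T cell markers was between 8.05 and 8.61 in the APC-KO groups and between 8.65 and 9.34 in the APC-WT groups. Of the 4, 3 were lower in each state, where 7.99% of all tested genes were called lower with Dox and 11.1% without. The summed signal of 6 mesothelial markers was between 9.60 and 10.10 in the APC-KO groups and between 10.29 and 10.65 in the APC-WT groups, with Upk3b, Lrrn4, Wt1 and Gpm6a under the floor, so that 2 were tested. Msln, the brighter by its mean of 10.06, was lower in APC-KO tumours (-0.45 ± 0.13 with Dox and -0.57 ± 0.13 without), while Upk1b was at 0.01 ± 0.09 and 0.14 ± 0.09 without passing.

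Endothelial markers had summed signals of 9.35 to 9.57 in APC-KO groups and 8.95 to 9.40 in APC-WT groups, with Tek under the floor. Of 4 tested, 3 were higher with Dox, as were 11.9% of all tested genes, and 0 without. Neutrophil markers ran from 7.19 to 7.68 in APC-KO tumours with Dox and from 8.90 to 10.83 in APC-KO tumours without Dox. They ran from 8.02 to 9.25 in APC-WT tumours with Dox and from 7.26 to 8.26 in APC-WT tumours without. S100a8 and S100a9 were higher in APC-KO tumours without Dox (2.94 ± 0.64 and 3.13 ± 0.70) and lower with Dox (-2.13 ± 0.64 and -2.35 ± 0.70). Their means over the 12 tumours were 6.39 and 6.69. Their values in single groups were not set against the floor, which limits these differences. Csf3r was higher without Dox (0.41 ± 0.09) and did not pass with Dox. Macrophage markers, with Lyz2 lower with Dox and Csf1r higher without, ran from 13.72 to 13.94 in APC-KO groups and from 13.72 to 14.04 in APC-WT groups. Normal gut epithelium (Cdx2, Vil1, Muc2 and Cdh17), smooth muscle (Myh11, Cnn1 and Actg2), enteric neurons and glia (S100b, Uchl1 and Elavl4) and adipocytes (Adipoq, Lep, Cidec and Pparg) had these markers under the floor, and in none of these lists did a tested gene pass between the genotypes. The part of any of these cell types in the values of the 7 genes was not tested.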

How the data were processed

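RNA of 12 tumours, 3 in each of 4 groups taken from the labels, was measured on Affymetrix arrays of 45101 probe sets. The table holds log2 values as deposited; per the submitters' processing notes MAS5, of no stated version, was used, and how background, scaling and the logarithm were handled is unknown here. The log2 unit was read from the range, 1.86 to 14.16. Probe sets with 1 symbol (34945) were named by Entrez identifier through the mouse reference, and each of 18193 genes took its brightest probe set. The 11070 genes whose mean reached the floor of 5.55, the median over non-control probe sets, were tested. A group-means model over all 12 arrays was fitted with limma 3.58.1 in R 4.3.3 (eBayes with a trend, 2-sided, Benjamini-Hochberg over the tested genes, threshold 0.05) and tested on simulated data. With 3 tumours in each of 2 groups an exact permutation test has a smallest p of 0.1. A fold is given where no tumour of the lower group was under the floor, and as a bound where all were. Precision rests on the number of arrays.

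The 7 genes and all lists were chosen with earlier results of these data known. Named besides the 7 are, per gene, the 2 genes of nearest pattern, its adjacent neighbours and passing neighbours past 1 log2 unit, and up to 3 passing genes per related list; other names were chosen after their values were seen. Alternatives were the moderation, array weights, the value of a gene, the samples fitted, the filter, quantile normalization, the replicate number as a block, and each array left out. Figures came from matplotlib 3.10.9 under Python 3.11.15.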

Additional observations from a re-analysis of the deposited data

How the results depend on the processing

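The genotype difference of the 7 genes stayed above 0 under every alternative but one: the second Prickle1 probe set, under the floor, gave -0.035 without Dox. The median of the 7 was 1.70 to 1.98 without Dox and 1.96 to 2.40 with Dox when 1 array was left out, highest with Dox without APC-KO Dox replicate 2. With the mean of probe sets Neto2 and Prickle1 fell under the floor, and Scara5 was at 1.30 with Dox and 0.84 without; the 75th percentile filter kept only Lrrn4cl and Angptl7. With Dox in APC-WT tumours 2 of the 7, Angptl7 and Prickle1, passed with array quality weights, and 0 to 1, Prickle1, with 1 array left out; Prickle1 was mostly under the floor there. With Dox in APC-KO tumours and for the interaction, 0 of the 7 passed under any alternative run. Genes called with Dox in APC-KO tumours were 60, against 29 with eBayes untrended, 35 where a gene was the mean of its probe sets, 36 where the fit held the 2 groups alone, and 1 to 92 with 1 array left out. Leaving out APC-KO no-Dox replicate 1 gave 4, APC-KO Dox replicate 2 gave 14 and APC-WT Dox replicate 2 gave 38. In APC-WT tumours they were 3, against 653 with array quality weights, 0 for probe set means, 18 in the fit of the 2 groups, and 0 to 418 with 1 array left out. Leaving out replicate 1 or 2 of either APC-WT group gave 0, APC-WT Dox replicate 3 gave 1 and APC-KO no-Dox replicate 2 gave 8. For the interaction they were 0, against 13 with array quality weights and 0 to 119 with 1 array left out, 119 in the absence of APC-WT no-Dox replicate 3 and 1 in that of APC-KO no-Dox replicate 1. The causes were not tested.

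Values near 0 turned sign with 1 array left out. The ranges were -0.78 to 0.17 for Neto2 with Dox in APC-KO tumours, -0.42 to 0.021 for As3mt and -0.46 to 0.012 for Elovl4 with Dox in APC-WT tumours, and, for the interaction, -0.26 to 0.30 for Lrrn4cl, -0.57 to 0.37 for Neto2, -0.026 to 0.44 for Angptl7 and -0.20 to 0.27 for Elovl4.

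Residuals of same-numbered arrays correlated between -0.221 and 0.175. Arrays of unlike number were not compared, and the labels do not say whether the replicate numbers pair the tumours. With the replicate block 43 genes passed with Dox in APC-KO tumours, 6 in APC-WT tumours and 0 for the interaction, with 0 of the 7 genes in each. The calls among related genes and neighbours stayed within 1.5 times under the alternatives run for them. Signal near the floor limits As3mt, Elovl4, Prickle1 and Neto2 in APC-WT tumours.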

Other observations

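The chromosomes of the genes gained in APC-KO tumours were counted after the data were seen. Of the 38 tested genes with a difference above 1 on the log2 scale in both Dox states, 10 lie on chromosome X, none of them one of the 7 genes, and 2, Lrrn4cl and As3mt, on chromosome 19. Over all 11070 tested genes 11.9% were called higher in APC-KO tumours with Dox and 13.8% without (limma). Of the 327 tested genes of chromosome X 31.5% were higher with Dox and 30.3% without, with medians of 0.08 and 0.04. Among them were Morc4 and Armcx1, an armadillo repeat gene whose pattern was close to those of Prickle1 and Elovl4 (1.69 ± 0.12 with Dox and 1.35 ± 0.12 without). Chromosome 3 had the highest share without Dox, 40.8% of 554 genes, against 12.8% with Dox. On chromosome 19 the share was 36.8% without Dox and 25.4% with Dox. Differences between these shares were not tested.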
